A study of Homo sapiens with 6 samples.

Results

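The chaperonin genes examined here are the 8 genes of the cytosolic CCT complex (TCP1, CCT2, CCT3, CCT4, CCT5, CCT6A, CCT7 and CCT8) and the genes of the mitochondrial HSP60 chaperonin and its cochaperonin, HSPD1 and HSPE1. They were taken by name as 10 of the 19785 human protein-coding genes with an annotated transcription start site (TSS). Myc chromatin immunoprecipitation sequencing (ChIP-seq) was compared in MDA-MB-231, a human triple-negative breast cancer cell line, and in its TKO derivative, in which TXNIP, the gene of the thioredoxin-interacting protein, had been deleted by CRISPR/Cas9. Parental cells keep their TXNIP gene, both lines grew in the same medium, and 1 Myc antibody served all libraries. Knockout clones were raised from single cells, so TXNIP loss and any property of a clone cannot be told apart. There were 2 Myc libraries per line among 6 samples, the other 2 samples being input chromatin. The study describes the 2 libraries of a line as biological replicates.

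Chaperonins are barrel-shaped protein machines that enclose an unfolded protein and let it fold in isolation. CCT, also called TRiC, is built of paired rings of 8 different subunits and is known above all for folding actin and tubulin. HSP60, encoded by HSPD1, works in the mitochondrial matrix with HSP10, its lid, encoded by HSPE1. Myc binds DNA with its partner MAX at the E-box CACGTG and at related hexamers, and is found at most active promoters when it is abundant.

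The parental lists held 3720 and 5719 peaks and the TKO lists 27213 and 25887, at a recovered depth of 26.4 and 22.2 M reads in parental replicates 1 and 2 and of 19.9 and 13.0 M reads in TKO replicates 1 and 2. The TKO libraries were thus the shallower ones. Their reads were extended by the peak caller to 182 and 201 bp, against 140 and 151 bp in parental cells, and a longer extension raises the reads over a summit and the width of a peak. The part of the extension in the differences below is given where it was computed.

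Every chaperonin gene was bound by Myc in every library. A peak summit lay within 5 kb of a TSS for 10 of 10 genes in both parental and in both TKO libraries. Over all genes this share was 13.9% and 15.5% in parental replicates 1 and 2, and 54.6% and 55.5% in TKO replicates 1 and 2. A peak in all 4 libraries was found for 10.8% of all genes. The 10 genes had 9 distinct binding sites, because HSPD1 and HSPE1 shared their strongest peak in all 4 libraries. These 2 genes are transcribed in opposite directions, and their nearest annotated TSSs are 81 bp apart. All 23 peaks listed for chaperonin genes in the parental libraries, counted per library, were overlapped by a peak in both TKO libraries. The TKO lists are far longer, and the share over all parental peaks was not computed. The overlap therefore does not set these sites apart.

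Binding was followed by the reads at the summit of the strongest peak of a gene (the peak of highest fold over local background), in reads per 1000000 library reads (RPM). TKO libraries were higher than parental libraries at all 9 sites, by 2.38-fold to 3.69-fold. The ATP-driven subunits of the CCT ring are given first.

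TCP1, the founding subunit (CCT1), had the weakest site, with 0.870 and 0.856 summit RPM in parental replicates 1 and 2 and 2.41 and 3.60 in TKO replicates 1 and 2. These values rested on 23, 19, 48 and 47 reads. Both TKO libraries were above both parental ones, by 3.48-fold on the means. The summits of the 2 lines were at different positions here, with a span of 837 bp over the 4 libraries. The ratio thus compares the strongest point of each library and not 1 position.

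CCT2, the beta subunit, had 1.63 and 1.35 summit RPM in parental cells and 4.66 and 5.91 in TKO cells. The groups did not overlap and the ratio of the means was 3.55. CCT3, the gamma subunit, had 1.97 and 2.66 summit RPM in parental cells and 5.62 and 6.98 in TKO cells. Its ratio of 2.72 was smaller, and its parental libraries differed more from each other than those of any other site. CCT4, the delta subunit, had 1.25 and 1.22 summit RPM in parental cells and 3.81 and 4.07 in TKO cells, 3.19-fold higher and with close replicates in both lines.

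CCT5, the epsilon subunit, had the highest mean of the 9 sites in both cell lines. It had 2.38 and 2.30 summit RPM in parental cells and 6.32 and 9.13 in TKO cells, a ratio of 3.30 with TKO replicate 2 well above TKO replicate 1. CCT6A, the zeta subunit, had 1.51 and 1.53 summit RPM in parental cells and 3.61 and 3.68 in TKO cells. This was among the smallest increases, at 2.39-fold, with the closest TKO replicates of the set. The CCT6A summits spanned 465 bp over the 4 libraries, so these values do not measure 1 position.

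CCT7, the eta subunit, had 1.44 and 1.67 summit RPM in parental cells and 3.96 and 4.91 in TKO cells, a ratio of 2.86. CCT8, the theta subunit, had 1.82 and 1.85 summit RPM in parental cells and 4.21 and 4.53 in TKO cells. Its ratio of 2.38 was the smallest of the 9 sites, although its groups were also clearly apart.

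The shared HSPD1-HSPE1 site had 2.27 and 1.76 summit RPM in parental cells and 6.87 and 7.98 in TKO cells. It rose most of the 9 sites, by 3.69-fold, and again every TKO library exceeded every parental one.

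**Figure D1:**
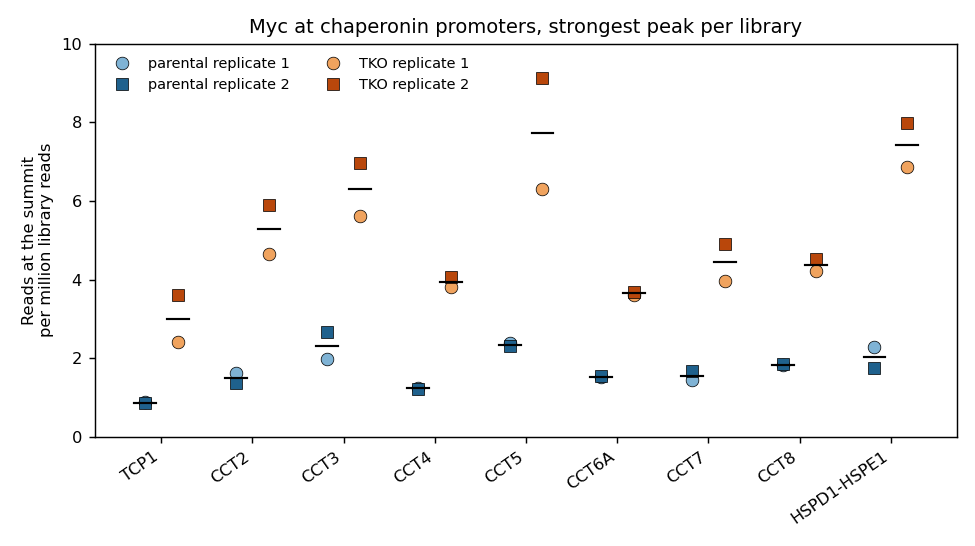
Reads at the summit of the strongest Myc peak in RPM (linear y axis), for the 9 chaperonin sites in each of the 4 libraries; bars are means of 2 libraries per cell line. At every site both TKO points lie above both parental points, and the means run from 3.01 for TCP1 to 7.72 for CCT5 in TKO cells.

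The order of the sites by level was partly kept between the lines. In parental cells the means ran from CCT5 (2.34 ± 0.0603 RPM, SD, n = 2) through CCT3 (2.31 ± 0.489), HSPD1-HSPE1 (2.01 ± 0.363) and CCT8 (1.83 ± 0.0223) to CCT7 (1.55 ± 0.162), CCT6A (1.52 ± 0.0133), CCT2 (1.49 ± 0.194), CCT4 (1.23 ± 0.0225) and TCP1 (0.863 ± 0.00989). The values of neighbours in this order overlapped between libraries except for CCT8 over CCT7, CCT2 over CCT4 and CCT4 over TCP1. In TKO cells the order began with CCT5 (7.72 ± 1.99), HSPD1-HSPE1 (7.42 ± 0.784), CCT3 (6.30 ± 0.965), CCT2 (5.28 ± 0.879), CCT7 (4.43 ± 0.671) and CCT8 (4.37 ± 0.222). Neighbours among these sites overlapped. CCT4 (3.94 ± 0.180), CCT6A (3.65 ± 0.0509) and TCP1 (3.01 ± 0.847) followed. There CCT8 stood clear of CCT4 and CCT4 of CCT6A, and both CCT6A values exceeded both TCP1 values, although the closest pair was 3.61 and 3.60. CCT2 was in place 7 of 9 in parental cells and in place 4 in TKO cells.

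The median of the 9 sites was 1.65 ± 0.0286 summit RPM in parental cells and 4.56 ± 0.493 in TKO cells (SD, n = 2), and the median of the 9 ratios was 3.19. The exact two-sided permutation p was 0.333, as small as 2 libraries per line can give, so no such permutation test could pass 0.05; the same p holds for each site alone. Increase was the rule in these data. Of 1697 distinct strongest peaks of genes bound in all 4 libraries, 98.1% also had every TKO library above every parental library, so the separation at 9 of 9 chaperonin sites was near the background. The median ratio over the 1697 peaks was 2.54, with the middle of the distribution, from its 10th to its 90th percentile, at 1.92 to 3.23. By size of ratio, 7 of the 9 sites were above that median. HSPD1-HSPE1, CCT2, TCP1 and CCT5 stood at percentiles 96.5, 95.2, 94.3 and 91.2 of the 1697 ratios, CCT4 at 89.0, CCT7 at 74.5 and CCT3 at 65.1. The TCP1 ratio compares summits at different positions in the parental and TKO libraries. CCT6A and CCT8 stood below the median, at 38.3 and 37.1. Scaling each library to the median of all its sites in place of its depth lowered the median chaperonin ratio to 1.25, and dividing the reads by the extension length gave 2.42.

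**Figure D2:**
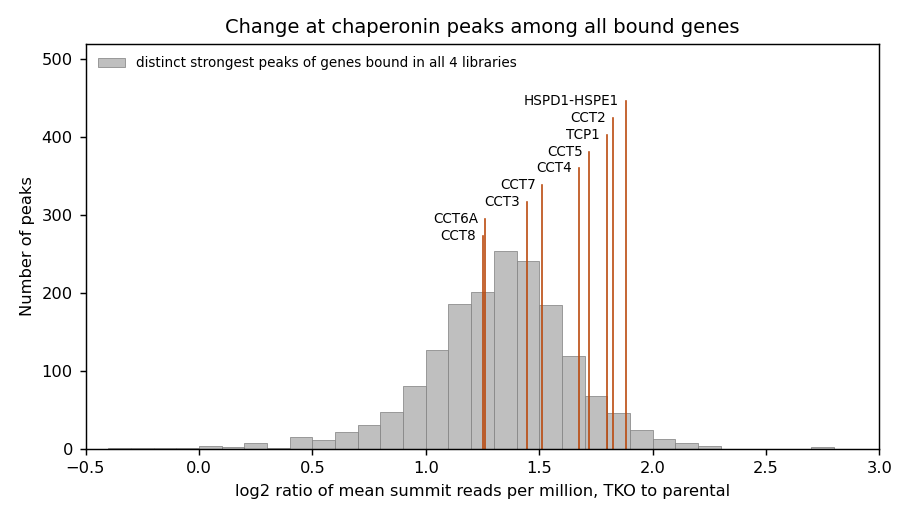
Histogram of the log2 ratio of mean summit RPM, TKO to parental, over 1697 distinct strongest peaks of genes bound in all 4 libraries (y axis, number of peaks); orange lines mark the 9 chaperonin sites, and their heights carry no value. HSPD1-HSPE1, CCT2 and TCP1 lie in the upper tail, with CCT6A and CCT8 left of the middle.

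Ranked by fold within its own list, most chaperonin genes were in the middle or upper part of the parental lists and near the top of the TKO lists. The mean percentile of the 10 genes was 66.0 ± 0.888 in parental cells and 97.5 ± 0.319 in TKO cells (SD, n = 2), a difference of 31.5 percentile points (exact permutation p = 0.333). The median over the chaperonin genes was 70.5 and 61.2 in parental replicates 1 and 2 and 98.2 and 99.2 in TKO replicates 1 and 2. The median over all genes with a peak was 56.7 and 56.8 in parental replicates 1 and 2 and 71.7 and 71.1 in TKO replicates 1 and 2. A longer list with many weak peaks raises the percentile of a given rank, so the lists were also cut to the 3720 peaks of highest −log10 p-value each. The mean over the chaperonin genes was then 66.6 and 53.7 in parental replicates 1 and 2 and 83.5 and 82.1 in TKO replicates 1 and 2, a difference of 22.6 points. Their medians were 70.5 and 58.7 in parental replicates 1 and 2 and 86.7 and 94.5 in TKO replicates 1 and 2. Medians over all genes were 56.7 to 59.0. TCP1 had no peak in the cut list of parental replicate 2.

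CCT2 was the most highly placed, at rank 16 in TKO replicate 1 and rank 10 in TKO replicate 2, and at ranks 411 and 933 in the parental lists. The HSPD1-HSPE1 peak was at rank 24 in both TKO lists, and at ranks 231 and 3208 in parental replicates 1 and 2. CCT3 was at ranks 89 and 38 in TKO cells. In the lists of 3720 peaks CCT2 and the shared HSPD1-HSPE1 peak were in the top 1% in both TKO libraries. No chaperonin gene was there in either parental library. The top 10% of these lists held 4 and 6 of the 10 genes in TKO replicates 1 and 2, and 3 and 0 in parental replicates 1 and 2. HSPD1 and HSPE1 are counted separately there. By definition these parts hold 1% and 10% of all peaks in a list, but strongest peaks of genes are more often there. In parental replicate 1, whose list was not shortened, 274 of 2191 distinct strongest gene peaks were in the top 10% and 24 in the top 1%. In the full lists of TKO replicates 1 and 2, 1921 of 9148 and 1858 of 9274 were in the top 10%. For the shortened lists the share over all genes was not computed.

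The other sites varied in direction and size once the lists were of equal length. CCT8 stood at percentiles 41.7 and 14.7 in parental replicates 1 and 2 and at 47.8 and 41.9 in TKO replicates 1 and 2, where the full TKO lists had put it at 92.7 and 91.5. CCT4 stood at 89.3 and 85.9 in parental replicates 1 and 2 and at 87.1 and 82.7 in TKO replicates 1 and 2. CCT6A was lower in both TKO libraries, at 86.3 and 26.1 against 95.5 and 89.7, with its rank of 2747 in TKO replicate 2 far from that of the other libraries. TCP1, at 15.1 in parental replicate 1, was at 52.3 and 83.4 in TKO replicates 1 and 2. CCT5, first by summit reads, was at 47.2 and 28.2 in the cut parental lists and at 79.6 and 96.7 in the cut TKO lists. Fold divides by local background, which was 9.0 reads at CCT5 in both parental libraries, 7.0 and 8.0 at CCT8, and 3.22 and 3.32 at CCT2. In TKO cells the local background was 7.26 and 4.22 reads at CCT5 and 1.62 and 1.06 at CCT2. These background values are not scaled to depth, so they compare sites within a library and not the 2 lines.

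**Figure D3:**
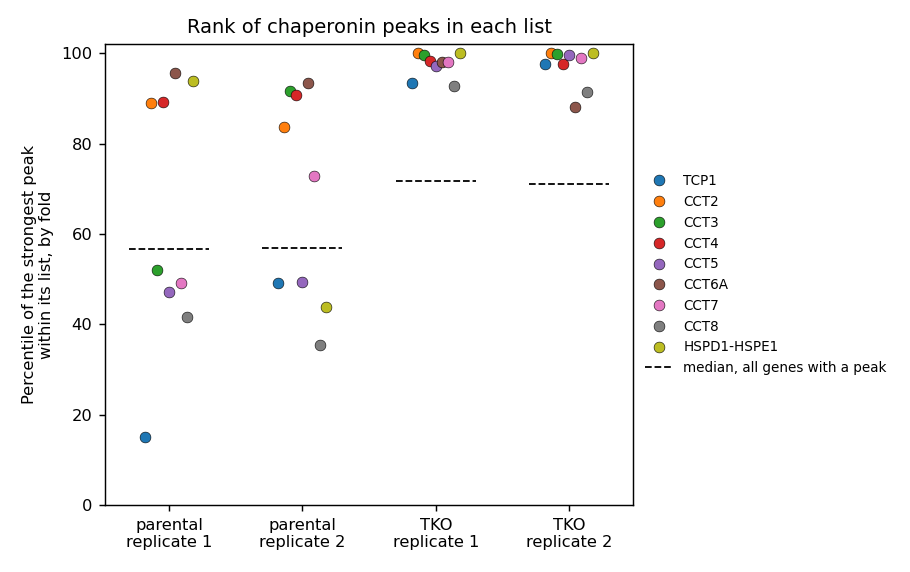
Percentile of the strongest peak of each chaperonin gene within its own full peak list by fold (y axis, 0 to 100), in the 4 libraries; points are sites, and dashed lines are the medians of all genes with a peak (56.7, 56.8, 71.7 and 71.1). Parental points spread from 15.1 to 95.5, and the lowest TKO point is at 88.1; the TKO lists are the longer ones, with 27213 and 25887 peaks against 3720 and 5719.

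Peaks were wider in TKO cells at all 9 sites. The median width of the strongest chaperonin peak was 402 ± 26.9 bp among parental libraries and 1078 ± 110 bp among TKO libraries (SD, n = 2), a median ratio of 2.88 (exact permutation p = 0.333). Over all 1697 peaks the median ratio was 2.65, and 98.1% had both TKO libraries wider than both parental ones, which puts the chaperonin sites close to the rest. CCT4 had the smallest gain, from 421 and 469 bp to 788 and 652 bp. The largest was at TCP1.

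At TCP1 the summit position also differed between the lines. Its parental peaks (hg19, chr6:160211275-160211435 in replicate 1 and chr6:160211340-160211552 in replicate 2) were 161 and 213 bp wide. Their summits were in intergenic sequence, 572 and 718 bp upstream of the nearest TCP1 TSS and 192 and 46 bp from the TSS of MRPL18, a mitochondrial ribosomal protein gene on the opposite strand. In TKO cells 1 peak of 1873 and 1914 bp (chr6:160209923-160211795 in replicate 1) covered both promoters, and its summits, in the TCP1 untranslated region (UTR), were 5 and 12 bp from a TCP1 TSS. The summit positions of the 4 libraries spanned 837 bp, against a median of 69 bp over the 9 sites and of 81 bp over all 1697 peaks, whose 90th percentile was 1178 bp.

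**Figure D4:**
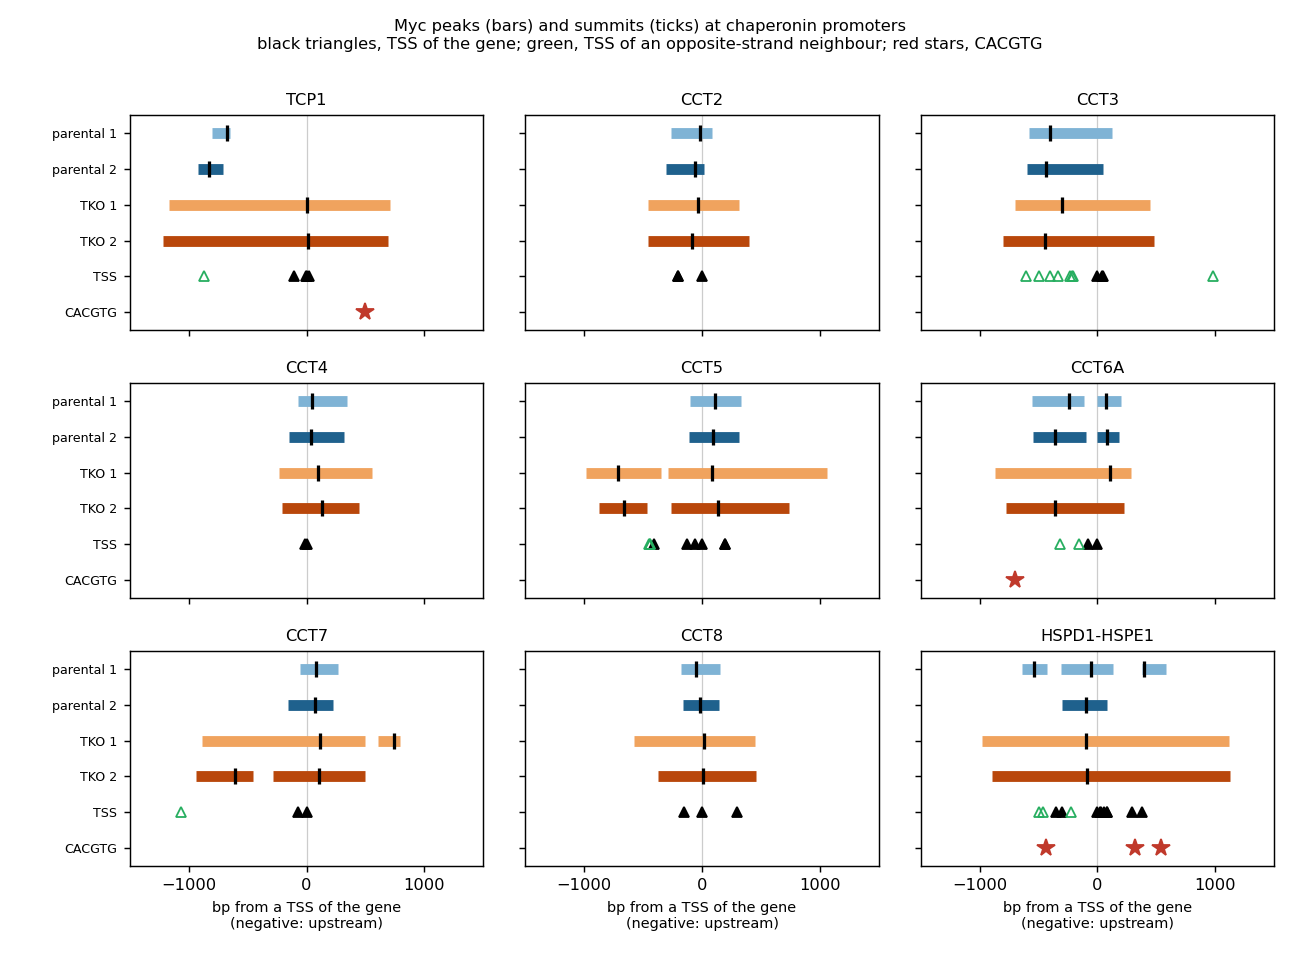
Myc peaks (bars) and summits (black ticks) in the 4 libraries at the 9 chaperonin sites, in bp from a TSS of the gene, upstream to the left; black triangles are TSSs of the gene, green open triangles TSSs of an opposite-strand neighbour, red stars CACGTG within the peaks drawn. The TKO bar at the TSS is longer than the parental bars at each site, the TCP1 summit shifts from the neighbour's side to the TCP1 TSS, and no star lies at a summit.

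At CCT6A the summits spanned 465 bp, 320 bp between the parental and 465 bp between the TKO replicates, and at CCT3 they lay 303 to 444 bp from the CCT3 TSS. At the other 6 sites the 4 summits spanned 39 to 95 bp. Over all 10 genes the median distance from the nearest TSS of the gene was 85.8 ± 2.47 bp among parental libraries and 96.8 ± 0.354 bp among TKO libraries (SD, n = 2). For CCT7 (chr2:73460546-73461934 in TKO replicate 1) all 4 summits fell within 39 bp, in a coding exon or an intron. For CCT5 (chr5:10250164-10251518 in TKO replicate 1) they fell within 46 bp, at the boundary of a coding exon and an intron. CCT4 (chr2:62115237-62116024) and CCT8 (chr21:30445521-30446546, both in TKO replicate 1) had their summits in the UTR of the gene in all libraries.

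Of the 10 genes, 7 had an opposite-strand protein-coding TSS within 1 kb of their own, which were TCP1, CCT3, CCT5, CCT6A, CCT7, HSPD1 and HSPE1. A peak between such genes cannot be assigned to 1 of them. HSPE1 was counted through HSPD1 alone. The share over all genes was not computed, so this count does not set the chaperonin genes apart. The CCT3 peak (chr1:156307634-156308785 in TKO replicate 1) had its summits upstream of CCT3 and 4 to 42 bp from a TSS of TSACC, which encodes a testis-specific co-chaperone. CCT6A shares its promoter with PSPH, the phosphatase of the last step of serine synthesis, at 81 bp. Parental cells had 2 peaks there, 1 on each side, which were joined in TKO cells into a peak of 1156 and 1010 bp (chr7:56118587-56119742 in replicate 1). Its summit was 104 bp from a CCT6A TSS in TKO replicate 1 and 40 bp from a PSPH TSS in TKO replicate 2, so even the replicates differed in the side with most reads. The nearest annotated CCT5 start is 32 bp from that of ATPSCKMT, a mitochondrial lysine methyltransferase gene. The strongest CCT5 summits were 533 to 579 bp from this ATPSCKMT TSS. Both TKO libraries had a further peak upstream there (chr5:10249471-10250105 in replicate 1), with 1.91 and 1.53 summit RPM, where no parental peak was listed. CCT7 starts 997 bp from PRADC1, and TKO replicate 2 had a separate peak between them (chr2:73460496-73460984), while TKO replicate 1 had a small one downstream of the CCT7 summit with 0.802 summit RPM.

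At HSPD1-HSPE1 the 3 peaks of parental replicate 1, of 203, 445 and 215 bp, lay within 1 TKO peak of 2097 and 2018 bp (chr2:198363524-198365620 in replicate 1). Parental replicate 2 had only the middle one. A further peak lay near MOB4, whose TSS is 577 bp from an alternative HSPD1 start. It was listed in parental replicate 1 (chr2:198380610-198380765) and in both TKO libraries. Its summits were 766 bp from that HSPD1 start in parental replicate 1 and 812 and 884 bp in TKO replicates 1 and 2. They were nearer to the MOB4 TSS. The peak had 1.06 summit RPM in the parental library and 3.71 and 3.14 in TKO cells. That peak was not in the list of parental replicate 2.

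The canonical E-box was absent from the summits of these peaks. No chaperonin gene had CACGTG, which reads alike on both strands, within 50 bp of the summit of its strongest peak in any of the 4 libraries, or within 100 bp. Over all genes with a peak, 21.9% and 18.8% had one within 50 bp in parental replicates 1 and 2, and 10.0% and 8.48% in TKO replicates 1 and 2. At such shares few of 9 sites would hold one. Among the distinct gene peaks in the top 1% of the full lists by fold, where CCT2, CCT3 and HSPD1-HSPE1 stood in both TKO lists, an E-box within 50 bp was present in 28.8% of 236 peaks in TKO replicate 1 and in 36.1% of 227 in TKO replicate 2. That these strong chaperonin peaks lacked it is a description of 3 sites.

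Further out, E-boxes were found in the TKO peaks of TCP1, CCT6A and the HSPD1-HSPE1 pair, that is for 4 of the 10 genes. Over all genes, 23.8% and 22.2% of strongest peaks held an E-box in TKO replicates 1 and 2, in peaks with a median width of 462 and 467 bp against 1156 and 1000 bp for the chaperonin genes. All of these E-boxes are printed here on the plus strand with 12 bases on either side, the E-box in capitals. They are the only ones under the strongest TKO peak of a chaperonin gene. The peak near MOB4 and the alternative HSPD1 start was not searched.

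TCP1, chr6:160210131-160210136: aggcgtggcccgCACGTGcgagcccgggag
CCT6A, chr7:56118755-56118760: aaagtaaaatacCACGTGttactgaatccc
HSPD1-HSPE1, chr2:198364099-198364104: tcggcgcgagccCACGTGtccttctttccg
HSPD1-HSPE1, chr2:198364327-198364332: ggatccgcgtcgCACGTGatggaacccgca
HSPD1-HSPE1, chr2:198365081-198365086: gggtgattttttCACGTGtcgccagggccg

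The TCP1 E-box was 490 and 482 bp from the TKO summits and outside both parental peaks. That of CCT6A was 804 and 340 bp from the TKO summits. The 3 of HSPD1-HSPE1 lay on both sides of the summit, at 636, 408 and 346 bp in TKO replicate 1. In parental replicate 1 the first and the last of these 3 were each under a small side peak, and the middle one was under no peak. For CCT4, CCT5 and CCT7 the nearest E-box was 3000, 2348 and 1696 bp from the summit in TKO replicate 1. CCT2, CCT3 and CCT8 had none within 5 kb. In TKO replicate 1, 2633 of 9148 distinct strongest peaks of all genes also had none within 5 kb. The median distance for the rest was 874.5 bp, against 1250.5 bp for the chaperonin sites that had one.

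Related hexamers were searched within 50 bp of the summits on both strands. These were CACGCG, then CATGTG, also CACGAG and lastly the hexamer CATGCG. The hexamer CATGTG was found at CCT2 in 3 libraries and at CCT3 in 4, while it was found for 7.79% and 7.89% of all genes with a peak in parental replicates 1 and 2 and for 5.41% and 4.44% in TKO replicates 1 and 2. CACGCG was found at CCT8 in both TKO libraries and at CCT6A in TKO replicate 2, against 9.87% and 9.25% of all genes in TKO replicates 1 and 2. In parental replicates 1 and 2 it was at no chaperonin summit, against 15.1% and 12.7% of all genes. CATGCG was found at CCT2 in parental replicate 1 and TKO replicate 1 and at CCT3 in TKO replicate 1, against 5.49% of all genes in parental replicate 1 and 3.82% in TKO replicate 1. CACGAG was found at no chaperonin summit, against 5.41% to 8.37% of all genes. The hexamers nearest to the summits are shown on the plus strand with 12 bases on either side, in capitals, since they lie where the E-box was looked for.

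CCT2, chr12:69979422-69979427: cccggccctccgCACATGgtgcgagccatg
CCT3, chr1:156308528-156308533: gactccagccagCACATGggggaaagacct
CCT6A, chr7:56119079-56119084: gcttatcagactCGCGTGtggccccacggc
CCT8, chr21:30445934-30445939: caggaagcagttCACGCGaccgctcggaag

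CACATG is CATGTG read on the other strand, as CGCGTG is CACGCG. The CCT2 hexamer was 2, 38 and 12 bp from the summits of parental replicates 1 and 2 and TKO replicate 1. That of CCT3 was 42, 6 and 4 bp from the summits of parental replicates 1 and 2 and TKO replicate 2, and the match of TKO replicate 1 was another one 44 bp away. The CCT8 hexamer was 14 and 28 bp from the TKO summits and that of CCT6A 16 bp from the summit of TKO replicate 2. TCP1, CCT4, CCT5, CCT7 and HSPD1-HSPE1 had none of the 5 hexamers within 50 bp of a strongest summit. CCT5, the site with most reads, is shown as an example of such a window, 50 bp to either side of its TKO replicate 1 summit, which is in capitals.

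CCT5, chr5:10250492-10250592: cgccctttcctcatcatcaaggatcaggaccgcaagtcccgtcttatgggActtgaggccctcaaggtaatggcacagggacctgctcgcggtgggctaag

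Base composition did not set the sites apart in parental cells. GC content within 100 bp of the summit had a median of 64.2% and 63.7% over the chaperonin sites in parental replicates 1 and 2 and of 67.7% and 65.7% in TKO replicates 1 and 2, against 64.2%, 62.7%, 63.7% and 64.2% over all genes with a peak. Some of the sequence under the peaks recurs elsewhere in the genome. Sequence with at least 95% identity to another place over at least 50 bp covered 116 of 1280 bp of the CCT3 site, 135 of 1156 bp at CCT6A, 112 of 1040 bp at CCT8 and 62 of 2102 bp at HSPD1-HSPE1, and none at the other 5 sites. A summit lay in it once, for CCT8 in TKO replicate 1, and how reads of such sequence were placed is not given in the sources used here.

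CCT works with other chaperones, and 50 genes in 6 lists were looked at in the same way. In all 4 libraries 13 of the 50 had a peak, and 19, 14, 46 and 48 had one in parental replicates 1 and 2 and TKO replicates 1 and 2. The shares over all genes were 10.8% in all 4 libraries, 13.9% and 15.5% in parental replicates 1 and 2, and 54.6% and 55.5% in TKO replicates 1 and 2. In lists cut to 3720 peaks 19, 10, 19 and 19 of the 50 had a peak, and 8 had one in all 4. Over all genes the shares in the cut lists were 13.9%, 10.9%, 15.0% and 15.3%, and that for all 4 was not computed. Percentiles of the 50 genes are given in those equal lists unless stated. Prefoldin, which hands actin and tubulin chains to CCT, had 1 of 6 genes bound in all 4 libraries. Its highest member by percentile in the full TKO lists was PFDN5, at 24.3 in the equal list of TKO replicate 1 and without a peak in that of TKO replicate 2, and PFDN1 had no peak in any library. Of the phosducin-like and other CCT partners, 2 of 4 were bound in all 4 libraries. PDCL3, a CCT cofactor, stood at percentiles 3.19 and 0.484 in the parental libraries, then at 84.8 and 78.1 in the TKO libraries.

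Of 4 chaperonin-like relatives, including CCT6B and the Bardet-Biedl syndrome genes, none was bound in all 4 libraries. BBS10 was the highest, with a peak in the equal list of TKO replicate 2 alone, at percentile 33.2. Among the 10 mitochondrial chaperones and proteases, each had a peak in both TKO lists and 2 in all 4 lists. HSPA9, the mitochondrial HSP70, stood at 94.9 and 72.6 in the parental libraries, then at 97.4 and 96.7 in the TKO libraries.

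In the cytosolic HSP70 and HSP90 system, each TKO library had a peak at 14 of 14 genes, and 5 had one in all 4. HSP90AB1, the constitutive HSP90, stood at 24.1 and 2.73 in the parental libraries, then at 85.8 and 29.6 in the TKO libraries. Of 12 known CCT substrates, 11 were bound in each TKO library and 3 in all 4. TUBA1B, an alpha-tubulin, was the highest, at 82.0 and 82.8 in the parental libraries, then 91.3 and 94.2 in the TKO libraries. GNB1, a G protein beta subunit, had no peak in any library. Within the full TKO lists the median percentiles of the 6 gene lists ran from 48.8 to 92.8, while those of the chaperonin genes were 98.2 and 99.2. Single genes stood about as high there, HSPA9 at 99.6 and 99.5 and TUBA1B at 98.8 and 99.2, but most of the 50 were lower. In the equal TKO lists the chaperonin medians were 86.7 and 94.5, and those of the 6 gene lists were not computed.

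The genes outside the set whose summit reads over the 4 libraries were nearest to the chaperonin median were GTF2H2, GTF2H2C and GRWD1, at Euclidean distances of 0.0907, 0.0931 and 0.0975 on the log2 scale. GTF2H2 and GTF2H2C are near-identical copies whose reads cannot be told apart with certainty. GRWD1 had 1.63 and 1.62 summit RPM in parental cells and 4.16 and 5.22 in TKO cells, against chaperonin medians of 1.63 and 1.67 and of 4.21 and 4.91.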

How the data were processed

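Myc ChIP-seq peak lists of 2 parental and 2 TKO libraries were used; the 2 input samples had no list analysed here. Per the labels and the study's methods, the authors aligned 50-cycle single reads to hg19 with Novoalign 3.08.02 and called peaks in each library with MACS2 2.1.1.20160309; handling of duplicate reads is not given in the sources used here. Each deposited list gives a fold over local background (a ratio with a pseudocount of 1), a −log10 p-value, a −log10 q-value and a score of 10 times the −log10 q-value; the score was not used. The lists ended at −log10 q-values of 2.03 to 2.07.

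Summit reads and local background were solved from fold and p, with a whole number of reads found for 100% of peaks (tolerance 0.002 in −log10 p), tested on simulated data. Depth came from the genome background with an assumed genome size of 2700000000 bases and the narrowest peak as extension. TSSs were those of basic protein-coding transcripts of GENCODE 44 lifted to GRCh37, 55869 in all; coordinates are 1-based. Peaks were assigned within 5 kb and ranked by fold; 11 peaks of TKO replicate 2 outside chromosomes 1 to 22, X and Y were left out. Libraries were compared by exact two-sided permutation, or as descriptions. Genes and peaks are not replicates.

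Named were all members, opposite-strand neighbours within 1 kb, the highest gene and any gene without a peak of each of 6 lists, and the 3 genes of nearest pattern. The members and lists were chosen with earlier results of these data known. Alternatives are described at the end. Tools were pandas 2.3.3, numpy 2.4.6, Python 3.11.15, pysam 0.24.0, scipy 1.17.1, samtools 1.23.1, blastn 2.17.0 and matplotlib 3.10.9.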

Additional observations from a re-analysis of the deposited data

How the results depend on the processing

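Over the alternatives 49 values stayed within the spread between libraries, 13 moved and 0 reversed. Requiring a −log10 q-value of at least 5 or cutting every list to 3720 peaks by p-value each removed TCP1 from 1 parental library (a difference of 0.5 genes with a peak), and a fold of at least 5 gave a mean of 8 parental and 10 TKO genes, a difference of 2. The percentile difference was 33.8, 22.6 and 40.7 under those 3 settings and 22.4 when ranked by −log10 p-value. The offset difference became 14.25 bp at a fold of at least 5 and with equal lists. Counting CACGTG or CACGCG gave 1.5 more genes with a motif in TKO cells. The summit read ratio was 1.25 scaled to the median of all sites and 2.42 divided by extension. Leaving out 1 library at a time, the ratio ranged from 2.70 (without TKO replicate 2) to 3.30, the width ratio from 2.52 to 3.16, the percentile difference from 30.9 to 32.1 and the offset difference from 9.25 to 12.75 bp; the peak and E-box counts differed by 0. Replicate numbers were shared by the labels only, with a correlation of same-numbered deviations of 0.0802 over 1697 peaks; with the replicate block the ratio was 3.19, the width ratio 2.87 and the percentile difference 31.5 (exact paired permutation p = 0.5, the smallest possible). Counting the HSPD1-HSPE1 peak once, an alternative chosen after seeing the data, gave a percentile difference of 31.5.

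The lists hold no region below the q threshold, so an unlisted peak, such as the MOB4 side of HSPD1 in parental replicate 2, was not detectable at this depth and threshold. Summit reads depend on the assumed genome size and on the extension.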
